A study of Homo sapiens with 24 samples.

Results

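The NuRD (nucleosome remodelling and deacetylase) complex genes described here are CHD4, HDAC1, HDAC2, RBBP4, MTA1, MTA2, MBD2, MBD3, GATAD2A and GATAD2B. These 10 genes were chosen by name, as genes of subunits of the complex, with earlier results of these libraries known. They are 10 of the 20037 protein-coding genes with a RefSeq record on the primary chromosomes of GRCh38. For each gene, every peak that shared at least 1 base with the gene record extended by 5 kb on either side was counted in all 24 libraries of the study. What was measured is where tagged or native protein was found on chromatin; the activity of the 10 genes was not measured.

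NuRD joins a nucleosome remodeller and histone deacetylases in a single complex. CHD4 is the ATP-dependent remodeller, HDAC1 and HDAC2 remove acetyl groups from histones, the MTA proteins hold the deacetylases, and RBBP4 binds histones. The MBD proteins belong to a methyl-CpG-binding family, and MBD2 and MBD3 occur in alternative forms of the complex. GATAD2A and GATAD2B connect the MBD protein to CHD4. BCL11A, a zinc-finger repressor of the fetal gamma-globin genes, is known to bind NuRD, and MBD2-containing NuRD is known to take part in silencing gamma-globin in erythroid cells. TR4 (gene NR2C2) is a nuclear receptor that binds direct repeats of AGGTCA and is also known as a gamma-globin repressor. The design text names the occupancy of both proteins as the question, so the genes of the complex are examined here as places where BCL11A or TR4 is found.

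All libraries are CUT&RUN, in which an antibody tethers a nuclease to chromatin and the released DNA is sequenced, from isolated nuclei of HUDEP-2 cells. HUDEP-2 is an established human erythroid progenitor line, grown here with SCF, EPO, dexamethasone and doxycycline and with no other treatment. BCL11A-directed libraries number 9: antibody to MYC and antibody to HA in clone B, in which BCL11A carries 3 HA and 3 MYC epitopes, and antibody to HA in clone TB, in which both proteins are tagged. TR4-directed libraries also number 9: antibody to MYC and antibody to TR4 in clone T, in which TR4 carries 3 FLAG and 3 MYC epitopes at its C terminus, and antibody to TR4 in clone TB. The remaining combination, MYC antibody with clone TB, can find both proteins, and its 3 libraries are described without entering a test. The MYC antibody was used only in tagged clones. Whether it also found the cells' own MYC protein was not tested. This limit also holds for the MYC libraries of clones B and T, which enter the tests. IgG gave 1 library per clone. Each line is 1 clone, so a property of a clone cannot be told apart from its tag. The labels do not say whether the 3 libraries of an antibody and clone came from separate cultures, and p-values then reflect nothing more than variation among the libraries, possibly technical. The main tests treat the 9 libraries of a target as separate, although they form 3 groups of antibody and clone. The p-values may therefore overstate the replication.

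The lists differed in length along with the target. BCL11A-directed lists held 12284 to 31432 peaks (median 25850), against 4621 to 14924 (median 11488) in TR4-directed lists; the MYC lists of clone TB held 20928 to 25738 and the IgG lists 2036 to 4828. In every group of 3 the shortest list was that of replicate 3. Read depth is unknown. A longer list places more peaks in any window, so peak number was also computed with every list limited to its 4490 strongest peaks, the number of peaks on primary chromosomes in the shortest target list. Under that limit the genes with more BCL11A-directed peaks no longer outnumbered those with fewer: of 6532 genes tested, 1232 were higher and 1622 lower, against 4482 higher and 317 lower of 12556 with the lists as deposited. This setting is called equal list lengths. Under it 6 of the 7 member regions called with the lists as deposited had a peak in too few libraries to be tested.

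The promoters of 7 members whose start carried a peak in 6 or more of 9 libraries of both kinds are printed, because the results on gene starts turn on them. Each is the 250 bases before the RefSeq start, from RefSeq's promoter table (GRCh38.p14), 5′ to 3′ on the gene's strand. Capitals mark 21 bases around the median summit (the position of highest signal within a peak) of the BCL11A-directed libraries. For GATAD2A they mark the TR4-directed median, since the BCL11A-directed median lies beyond the window. For MTA2 they rest on 6 BCL11A-directed libraries, with summits from −194 to 127 bases from the start. The TR4-directed median of MTA2, 70.5 bases after the start, lies beyond the bases printed. The 7 stretches lie at chr1:32291833-32292082 (plus strand, HDAC1), chr1:32650958-32651207 (plus strand, RBBP4), chr11:62601866-62602115 (minus strand, MTA2, first start), chr18:54224670-54224919 (minus strand, MBD2), chr19:1592866-1593115 (minus strand, MBD3), chr19:19405425-19405674 (plus strand, GATAD2A, second start) and chr1:153922973-153923222 (minus strand, GATAD2B).
HDAC1: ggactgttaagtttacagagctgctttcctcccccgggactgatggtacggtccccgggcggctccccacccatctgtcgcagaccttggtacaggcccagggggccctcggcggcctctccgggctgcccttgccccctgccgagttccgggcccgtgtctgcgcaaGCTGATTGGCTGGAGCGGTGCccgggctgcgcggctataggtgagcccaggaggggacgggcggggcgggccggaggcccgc
RBBP4: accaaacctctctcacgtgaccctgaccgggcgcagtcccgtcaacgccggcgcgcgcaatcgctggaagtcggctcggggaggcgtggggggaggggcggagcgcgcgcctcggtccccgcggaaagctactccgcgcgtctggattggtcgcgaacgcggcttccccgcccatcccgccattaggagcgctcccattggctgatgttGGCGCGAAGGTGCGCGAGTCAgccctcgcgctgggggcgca
MTA2: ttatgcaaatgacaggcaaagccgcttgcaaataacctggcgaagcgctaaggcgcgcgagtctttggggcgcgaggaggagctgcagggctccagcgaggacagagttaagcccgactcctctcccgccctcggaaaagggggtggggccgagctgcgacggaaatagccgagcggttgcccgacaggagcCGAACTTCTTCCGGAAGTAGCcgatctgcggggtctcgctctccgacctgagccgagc
MBD2: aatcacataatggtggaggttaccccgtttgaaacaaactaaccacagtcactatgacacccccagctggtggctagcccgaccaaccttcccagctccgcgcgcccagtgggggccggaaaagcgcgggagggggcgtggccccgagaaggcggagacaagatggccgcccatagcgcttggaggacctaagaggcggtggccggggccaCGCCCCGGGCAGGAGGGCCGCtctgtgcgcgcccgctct
MBD3: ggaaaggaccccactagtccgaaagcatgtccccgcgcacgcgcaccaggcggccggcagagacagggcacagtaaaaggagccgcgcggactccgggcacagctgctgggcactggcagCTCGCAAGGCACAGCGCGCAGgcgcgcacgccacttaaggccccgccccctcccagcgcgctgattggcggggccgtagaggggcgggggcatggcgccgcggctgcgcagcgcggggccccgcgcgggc
GATAD2A: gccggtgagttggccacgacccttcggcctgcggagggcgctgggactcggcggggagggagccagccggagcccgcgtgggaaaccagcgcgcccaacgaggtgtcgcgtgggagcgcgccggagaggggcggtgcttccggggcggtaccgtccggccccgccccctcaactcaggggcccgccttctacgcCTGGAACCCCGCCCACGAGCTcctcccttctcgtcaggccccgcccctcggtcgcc
GATAD2B: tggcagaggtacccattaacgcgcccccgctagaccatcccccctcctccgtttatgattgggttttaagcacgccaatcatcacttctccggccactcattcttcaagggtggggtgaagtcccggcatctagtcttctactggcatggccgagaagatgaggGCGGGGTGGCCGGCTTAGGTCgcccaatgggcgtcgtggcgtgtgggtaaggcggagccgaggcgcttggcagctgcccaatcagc

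The 13 RefSeq promoters of the 10 members, each of 300 bases from 250 before to 50 after a start, were searched on both strands for short motifs. TGACCA, the sequence known to be bound by BCL11A, was in 0 of 13, and 10.7% of 35116 RefSeq promoters hold it. AGGTCA, the nuclear receptor sequence, was also in 0 of 13 (13.8% of all promoters), as was its direct repeat with 1 base between (0.0228% of all promoters) and AGATAA, the sequence of GATA factors (10.3%). CACGTG was in 1 of 13, at RBBP4 (7.26%). CCAAT, a motif added after the sequences had been seen, was in 6 promoters of 5 members (34.6% of all promoters). One match lies inside the capitals of HDAC1, on the minus strand at positions 173 to 177 of the stretch shown, where the median summit was at position 179 in BCL11A-directed and 180.5 in TR4-directed libraries. Matches describe these windows and are not evidence of a bound site.

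Most NuRD genes carried BCL11A-directed peaks in every library, and fewer carried TR4-directed peaks in every library. A peak lay in the window in all 9 BCL11A-directed libraries at 8 of the 10 genes, and in all 9 TR4-directed libraries at 4 of the 10 (MBD2, MTA2, GATAD2A and GATAD2B). Over all 20037 genes the same was true of 28.4% with BCL11A-directed and 14.6% with TR4-directed libraries, and the windows of the members are longer, with a median of 49832.5 bases against 34115 bases for all genes. The 2 exceptions with BCL11A-directed libraries were RBBP4 (8 of 9) and HDAC2 (2 of 9). The IgG libraries had 1 peak at MTA1, in clone B, and 1 at GATAD2A, in clone T, and none at the other members.

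Presence was compared by a two-sided Fisher's exact test, Benjamini-Hochberg adjusted, over the 12556 genes whose window held a peak in 4 or more of the 18 libraries. Of the 9 members tested (HDAC2 had too few peaks), 0 were called in either direction, and 0 had an unadjusted p under 0.05 by the same Fisher's exact test. Over all genes 9.93% were called higher and 0.526% lower with BCL11A. The largest gap among members was 9 of 9 BCL11A-directed against 7 of 9 TR4-directed libraries, shared by CHD4, MBD3 and MTA1.

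The number of peaks per window separated the members more. It was tested for the same genes with an exact permutation test (two-sided) of the mean over all 48620 regroupings of the 18 libraries. Of 9 members tested, 4 had more peaks with BCL11A (MTA1, MBD3, GATAD2B and CHD4) and 0 had fewer (0 also at an unadjusted p under 0.05 in the exact permutation test). Over all genes tested 35.7% were called higher and 2.52% lower, so the members' count is near the background and is not a result about NuRD genes as a group. The median difference was 1.11 peaks per library over the tested members and 0.667 over all genes tested. With equal list lengths these medians were −0.111 and −0.0556.

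**Figure D1:**
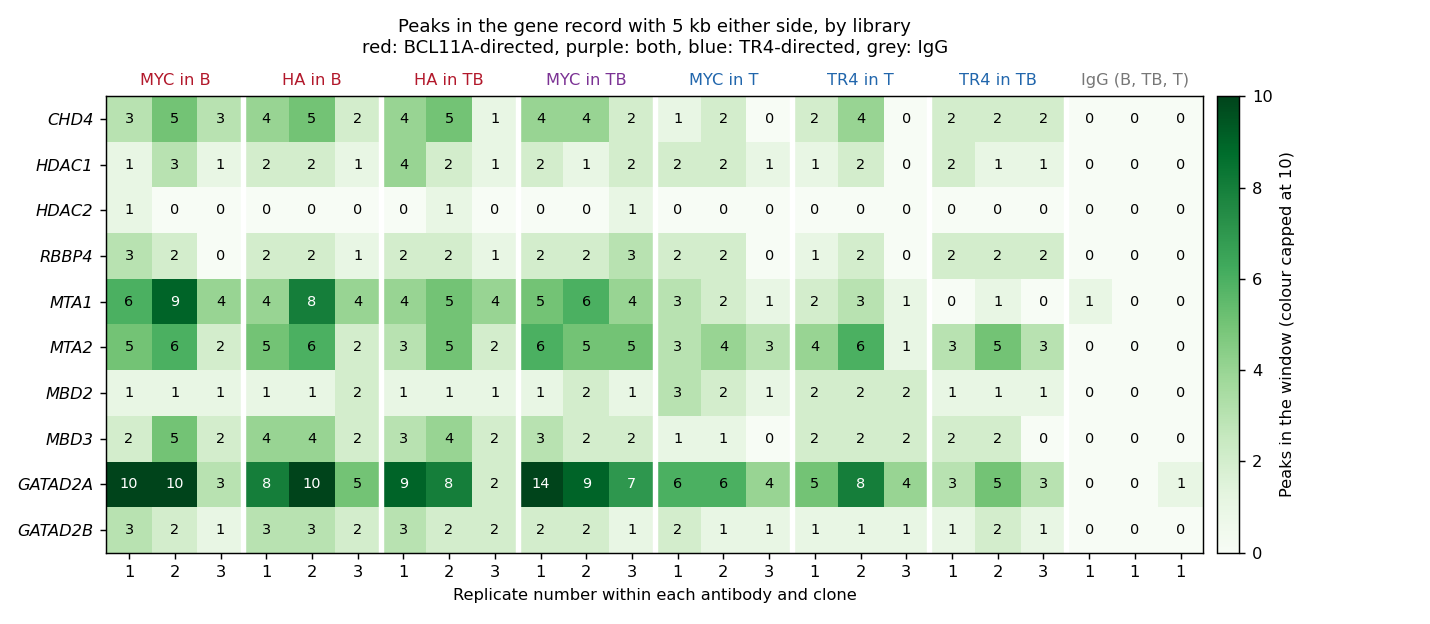
Number of peaks in the window of each gene (rows) in each of the 24 libraries (columns, grouped by antibody and clone, replicate numbers below); darker green is more peaks. At MTA1 the BCL11A-directed libraries held 4 to 9 peaks and the TR4-directed libraries 0 to 3, while HDAC2 was at 0 in 7 of 9 BCL11A-directed and in all 9 TR4-directed libraries.

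CHD4, the remodeller (NCBI gene 1108, chr12:6570082-6607379, minus strand), had 1, 4 and 5 peaks as the lowest, median and highest count in BCL11A-directed libraries, against 0, 2 and 4 in TR4-directed libraries. The ranges overlapped. The mean was 3.56 ± 1.42 with BCL11A and 1.67 ± 1.22 with TR4 (SD, n = 9 each), a difference of 1.89 peaks with an adjusted p of 0.0430 (exact permutation test). That call is narrow. It was lost, with adjusted p between 0.0515 and 0.0596 in the exact permutation test, on leaving out any 1 of 8 libraries: replicate 2 of MYC in clone B, replicate 1 or 2 of HA in clone B, replicate 1 or 2 of HA in clone TB, replicate 1 or 3 of MYC in clone T, or replicate 3 of TR4 in clone T. The difference was 0.222 with equal list lengths (adjusted p = 0.845, exact permutation test; range over all 27 alternatives 0.00854 to 0.845). The call was also lost without the MYC libraries (difference 1.5, adjusted p = 0.305) and with every gene that had a peak tested (adjusted p = 0.0532, exact permutation test). In all, 11 of the 27 alternatives lost it and 16 kept it. Among those that kept it were the replicate block (adjusted p = 0.00854) and leaving out all replicates numbered 3 (adjusted p = 0.0306, exact permutation test).

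The CHD4 window held 4 regions, a region being a stretch where peaks of any of the 24 libraries share at least 1 base. The region chr12:6607343-6607644, spans the outer end of the gene record, with its median summit 998 bases before the start in the promoter table (which lies inside the record), and had a peak in 7 of 9 BCL11A-directed against 7 of 9 TR4-directed libraries. The neighbouring region chr12:6607812-6608610 had one in 7 of 9 BCL11A-directed against 2 of 9 TR4-directed libraries (adjusted p = 0.127, Fisher's exact test). It was called in 4 of the 18 repeats that left out 1 library, with adjusted p between 0.0382 and 0.0478 in Fisher's exact test: those without replicate 3 of HA in clone B, replicate 3 of HA in clone TB, or replicate 1 or 2 of TR4 in clone T. A further region, chr12:6568199-6568424, present in 8 and 5 of 9 libraries, lies at the start of the next gene, NOP2, and not at CHD4 itself.

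HDAC1 and HDAC2, the deacetylases, differed in their peaks. HDAC1 (gene 3065, chr1:32292083-32333626, plus strand) had 1, 2 and 4 peaks (lowest, median, highest) in BCL11A-directed and 0, 1 and 2 in TR4-directed libraries; the difference of 0.556 was not called (adjusted p = 0.447, exact permutation test). It was −0.111 with equal list lengths (adjusted p = 1, exact permutation test). Its start region, chr1:32291819-32292197, carried a peak in 9 of 9 BCL11A-directed against 8 of 9 TR4-directed libraries. The median summit stood 72 bases before the start in BCL11A-directed and 70.5 bases before it in TR4-directed libraries, as the capitals in its promoter mark. The median fold enrichment there, the authors' own value for each peak, was 21.6 in BCL11A-directed and 22.5 in TR4-directed libraries. The library without a peak at the HDAC1 start was replicate 3 of TR4 in clone T.

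HDAC2 (gene 3066, chr6:113933028-113971148, minus strand) had a single weak region in its whole window, chr6:113971288-113971547. A peak lay there in replicate 1 of MYC in clone B (fold 6.00, 399 bases before the start), in replicate 2 of HA in clone TB (fold 5.11, 375 bases before) and in replicate 3 of MYC in clone TB (fold 6.50, 238 bases before). None of the 9 TR4-directed and none of the 3 IgG lists held a peak. HDAC2 was thus the member with the fewest peaks, and its close relative HDAC1 had a start peak in 9 of 9 libraries of BCL11A and 8 of 9 of TR4. With unknown depth, a list without a peak does not show that the protein was absent.

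RBBP4, the histone-binding subunit through which BCL11A is known to contact NuRD (gene 5928, chr1:32651208-32686211, plus strand), had 0, 2 and 3 peaks in BCL11A-directed and 0, 2 and 2 in TR4-directed libraries. The mean was 1.67 with BCL11A and 1.44 with TR4, a difference of 0.222 peaks that was not called (adjusted p = 0.908, exact permutation test). It was −0.222 with equal list lengths (adjusted p = 0.715, exact permutation test). Both of its tested regions lie at the shared start of RBBP4 and ZBTB8OS, which run in opposite directions, so the peaks cannot be assigned to either gene. The region chr1:32650914-32651307 had a peak in 7 of 9 BCL11A-directed against 6 of 9 TR4-directed libraries, and chr1:32650448-32650672 in 7 of 9 of each.

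MTA1, a scaffold subunit (gene 9112, chr14:105419827-105470729, plus strand), showed the clearest separation of the 10 genes. It had 6, 9 and 4 peaks in MYC libraries of clone B, 4, 8 and 4 in HA libraries of clone B, and 4, 5 and 4 in HA libraries of clone TB. Against these stood 3, 2 and 1 in MYC libraries of clone T, 2, 3 and 1 in TR4 libraries of clone T, and 0, 1 and 0 in TR4 libraries of clone TB. Every BCL11A-directed library held more peaks than any TR4-directed library. The mean was 5.33 ± 1.94 with BCL11A and 1.44 ± 1.13 with TR4 (SD, n = 9 each), a difference of 3.89 peaks with an adjusted p of 0.000840 (exact permutation test). The 5 kb on either side also hold peaks at CRIP2, the next gene. With 1 kb on either side, which leaves those out, the difference was 2.67 (adjusted p = 0.000929, exact permutation test). Without the MYC libraries, and with 5 kb again, the difference was 3.67 (adjusted p = 0.0236, exact permutation test). Equal list lengths gave 0.444, which was not called (adjusted p = 0.342, exact permutation test; range over all 27 alternatives 0.000660 to 0.342).

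The MTA1 regions that were called lay inside the gene, far from its start. The region chr14:105452154-105452497, its median summit 32502 bases after the start, had a peak in 9 of 9 BCL11A-directed, 3 of 3 MYC libraries of clone TB, and 0 of 9 TR4-directed libraries (adjusted p = 0.000929, Fisher's exact test). Folds there ran from 12.9 to 31.0 in BCL11A-directed libraries, and the summit fell on the same base, 32502 after the start, in 7 of those 9. This region kept its call in each of the 26 alternatives that tested it, with adjusted p between 0.000325 and 0.0241 in Fisher's exact test, and with equal list lengths it was present in 9 of 9 and 0 of 9. The region chr14:105448699-105448889 had a peak in 9 of 9 and 2 of 9, and chr14:105440314-105440686 in 7 of 9 and 0 of 9 (adjusted p = 0.0129 for each, Fisher's exact test). Those 2 were not called without the MYC libraries, with fewer samples (differences 0.667 and 0.833 in the share of libraries, against 0.778 for each with all; adjusted p = 0.147 and 0.0652, Fisher's exact test; ranges over 25 alternatives 0.000808 to 0.147 and 0.00353 to 0.126).

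At the start of MTA1 the TR4-directed libraries split by clone. The region chr14:105419332-105419440, 425 bases before the start, had a peak in replicates 1 and 2 of MYC in clone T (folds 19.5 and 31.9) and in replicates 1 and 2 of TR4 in clone T (folds 24.8 and 27.8). No BCL11A-directed library, no TR4 library of clone TB and no MYC library of clone TB had one. Over 0 of 9 BCL11A-directed against 4 of 9 TR4-directed libraries it was not called (adjusted p = 0.145, Fisher's exact test). The adjacent region at the start itself, chr14:105419766-105419927, had a peak in 3 of 9 BCL11A-directed against 0 of 9 TR4-directed libraries and was too rare to test. With equal list lengths the regions chr14:105448699-105448889 and chr14:105440314-105440686 were left with 0 and 2 BCL11A-directed libraries and 0 TR4-directed libraries. Peaks from chr14:105473668 onward belong to the start of CRIP2, the next gene.

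MTA2, the other scaffold (gene 9219, chr11:62593214-62601865, minus strand), held 2, 5 and 6 peaks (lowest, median, highest) in BCL11A-directed and 1, 3 and 6 in TR4-directed libraries. The difference of 0.444 was not called (adjusted p = 0.781, exact permutation test). MTA2 has 2 RefSeq starts. Its region chr11:62599175-62599516, 1839 bases after the second start, had a peak in all 18 libraries. The median fold was 20.1 in BCL11A-directed and 19.5 in TR4-directed libraries. The region at the first start, chr11:62601651-62602139, had one in 6 of 9 BCL11A-directed against 8 of 9 TR4-directed libraries (adjusted p = 0.755, Fisher's exact test). The region chr11:62591420-62592092, present in 9 and 8 of 9, lies at the start of TUT1.

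**Figure D2:**
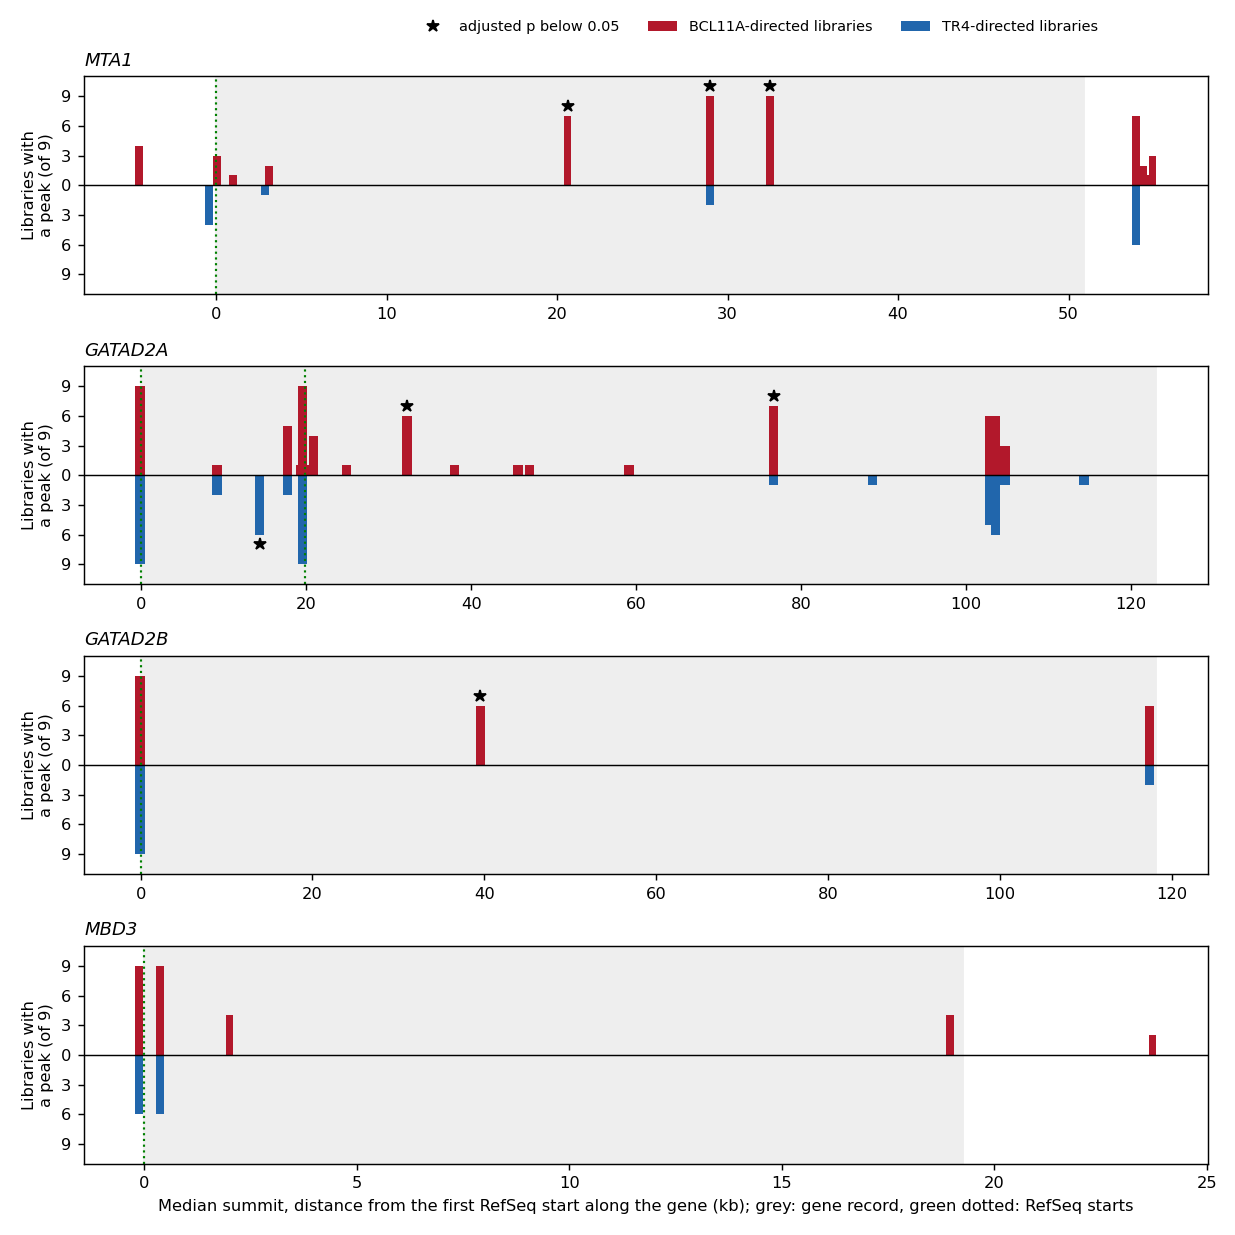
Regions with a peak along MTA1, GATAD2A, GATAD2B and MBD3, placed by median summit in kb from the first RefSeq start; bars upward count BCL11A-directed libraries and bars downward TR4-directed libraries (0 to 9), stars mark an adjusted p below 0.05, and bars of neighbouring regions may overlap. All 7 starred regions lie inside a gene record and away from the dotted starts, while the GATAD2A and GATAD2B starts reach 9 in both directions.

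MBD3 (gene 53615, chr19:1573596-1592865, minus strand) had 2, 5 and 2 peaks in MYC libraries of clone B, 4, 4 and 2 in HA libraries of clone B, and 3, 4 and 2 in HA libraries of clone TB. The TR4-directed libraries held 1, 1 and 0 (MYC in clone T), 2, 2 and 2 (TR4 in clone T), and 2, 2 and 0 (TR4 in clone TB). The groups met at 2 peaks, where the lowest BCL11A-directed and the highest TR4-directed libraries lay. The mean was 3.11 ± 1.17 with BCL11A and 1.33 ± 0.87 with TR4 (SD, n = 9 each), a difference of 1.78 with an adjusted p of 0.0196 (exact permutation test). MBD3 was the only member called higher with equal list lengths (difference 1.22, adjusted p = 0.0139, exact permutation test). There its presence was called too, with a difference of 0.778 in the share of libraries (adjusted p = 0.00941, Fisher's exact test; range over all 27 alternatives 0.00941 to 1). The call of number was lost without the MYC libraries (adjusted p = 0.140, exact permutation test) and with peaks of −log10 q of at least 5 (1.33, adjusted p = 0.0519, exact permutation test; range over all 27 alternatives 0.00816 to 0.140).

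A pair of regions at the start of MBD3 held most of these peaks. The region chr19:1592833-1593100, median summit 119 bases before the start, and the region chr19:1592277-1592594, 371.5 bases after it, each had a peak in 9 of 9 BCL11A-directed against 6 of 9 TR4-directed libraries (adjusted p = 0.321 for each, Fisher's exact test). Equal list lengths called the first of them (difference 0.667 in the share of libraries, adjusted p = 0.0376, Fisher's exact test). Where a peak had to be at least 0.5 of the region in length, both were called (0.778 with adjusted p = 0.0134 and 0.889 with adjusted p = 0.00444, Fisher's exact test). Without the MYC libraries the difference was 0.167 for each (adjusted p = 1, Fisher's exact test; ranges over 26 alternatives 0.0134 to 1 and 0.00444 to 1). Median folds were 15.1 and 16.2 in BCL11A-directed libraries, against 8.34 and 7.75 in the TR4-directed libraries with a peak; folds of different lists were not tested. The remaining tested regions, chr19:1590757-1590905 and chr19:1573789-1573963, had a peak in 4 of 9 BCL11A-directed against 0 of 9 TR4-directed libraries each (adjusted p = 0.145 for each, Fisher's exact test).

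MBD2, the methyl-CpG binder (gene 8932, chr18:54151606-54224669, minus strand), was the only tested member with fewer peaks in the BCL11A-directed libraries: 1, 1 and 2 (lowest, median, highest), against 1, 2 and 3 in TR4-directed libraries. The difference of −0.556 was not called (adjusted p = 0.188, exact permutation test). With equal list lengths it was −0.778 and was called (adjusted p = 0.0440, exact permutation test; range over all 27 alternatives 0.0440 to 0.733). The start region chr18:54224571-54224890 had a peak in all 18 libraries, with the median summit 29 bases before the start in BCL11A-directed and in TR4-directed libraries alike. A second region inside the gene, chr18:54223805-54224106, had a peak in 0 of 9 BCL11A-directed against 5 of 9 TR4-directed libraries, all 5 in clone T (adjusted p = 0.0728, Fisher's exact test). It was called on leaving out replicate 3 of MYC in clone T or any 1 of the TR4 libraries of clone TB (adjusted p between 0.0302 and 0.0315, Fisher's exact test).

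GATAD2A, a bridge between the MBD protein and CHD4 (gene 54815, chr19:19385843-19508932, plus strand), held the most peaks of any member. Counts were 2, 8 and 10 in BCL11A-directed libraries (lowest, median, highest), against 3, 5 and 8 in TR4-directed libraries, and 14, 9 and 7 in the MYC libraries of clone TB. The difference of 2.33 was not called (adjusted p = 0.146, exact permutation test). It was called on leaving out replicate 3 of HA in clone TB, the library with 2 peaks (difference 2.99, adjusted p = 0.0352, exact permutation test), or all replicates numbered 3 (3.67, adjusted p = 0.0249), and with the replicate block (2.33, adjusted p = 0.0356, exact permutation test). With equal list lengths it turned to −0.667 (adjusted p = 0.0593, exact permutation test; range over all 27 alternatives 0.0249 to 0.331). Its window is also the longest of the 10.

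Both RefSeq starts of GATAD2A carried a peak in all 18 libraries, at chr19:19385181-19386168 and chr19:19405218-19405825. Between and after them lay 3 regions that differed by target. The region chr19:19400100-19400296, 5488 bases before the second start, had a peak in 0 of 9 BCL11A-directed against 6 of 9 TR4-directed libraries, 5 of the 6 in clone T (adjusted p = 0.0327, Fisher's exact test). It was the only TR4-preferred region among the members. The region chr19:19417884-19418168 had a peak in 6 of 9 BCL11A-directed against 0 of 9 TR4-directed libraries (adjusted p = 0.0327), and chr19:19462212-19462568 in 7 of 9 and 1 of 9 (adjusted p = 0.0499, Fisher's exact test). Without the MYC libraries, with fewer samples, the differences in the share of libraries were the same (−0.667, 0.667 and 0.667) and none was called (adjusted p = 0.147, 0.147 and 0.178, Fisher's exact test; these were also the highest over their alternatives). Equal list lengths left the first with 0 BCL11A-directed and 3 TR4-directed libraries, and the other two with 0 of each.

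GATAD2B, the paralogue of GATAD2A (gene 57459, chr1:153804725-153922972, minus strand), had 3, 2 and 1 peaks in MYC libraries of clone B, 3, 3 and 2 in HA libraries of clone B, and 3, 2 and 2 in HA libraries of clone TB. The TR4-directed libraries held 2, 1 and 1 (MYC in clone T), 1, 1 and 1 (TR4 in clone T), and 1, 2 and 1 (TR4 in clone TB). The ranges overlapped at 1 and 2 peaks. The mean was 2.33 ± 0.71 with BCL11A and 1.22 ± 0.44 with TR4 (SD, n = 9 each), a difference of 1.11 with an adjusted p of 0.0201 (exact permutation test). With equal list lengths it turned to −0.111 (adjusted p = 1), and without the MYC libraries it was 1.33 (adjusted p = 0.0569, exact permutation test; range over all 27 alternatives 0.00455 to 1). The start region chr1:153922908-153923376, in the promoter shown, had a peak in all 18 libraries. The region chr1:153883347-153883536, 39561 bases after the start, had one in 6 of 9 BCL11A-directed against 0 of 9 TR4-directed libraries (adjusted p = 0.0327, Fisher's exact test). With fewer samples, on leaving out the MYC libraries, the difference was 0.833 in the share of libraries, against 0.667 with all, and was not called (adjusted p = 0.0652, Fisher's exact test; range over 25 alternatives 0.00968 to 0.125). No library of either target had a peak there with equal list lengths.

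With the lists as deposited, the member regions that were called lay away from gene starts. The windows held 66 regions, of which 2 had an IgG peak, 14 had a peak in 1 of the 18 libraries and 38 were tested. Within 1 kb of a start 0 of 19 regions were called with Fisher's exact test, and 1 had an unadjusted p under 0.05; across the genome 20.1% of such regions were called BCL11A-preferred and 2.25% TR4-preferred. More than 1 kb from any start 6 of 19 were BCL11A-preferred and 1 of 19 TR4-preferred. The shares for such regions across the genome were 34.6% and 2.08%, so the members' counts away from starts are near the background. Under other settings, as given above, the start regions of MBD3 were called BCL11A-preferred. The MBD2 region chr18:54223805-54224106, also within 1 kb of a start, was called TR4-preferred in some repeats. Whether NuRD genes differ from other genes in this was not tested. Present in all 18 libraries were 5 member regions, of MBD2, MTA2, GATAD2B and GATAD2A (2).

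Summits in those 5 regions were compared with an exact permutation test of the mean position. Of 1439 regions with a peak in all 18 libraries, 25.2% were called, with a median absolute difference of 26 bases. Only the second start of GATAD2A was called among the members. In BCL11A-directed libraries the summits lay 302, 254 and 124 bases before that start (MYC in clone B), 276, 275 and 124 before it (HA in clone B), and 297, 280 and 243 before it (HA in clone TB). In TR4-directed libraries they lay 300, 299 and 43 bases before it (MYC in clone T), 38, 46 and 47 before it (TR4 in clone T), and 46, 42 and 75 before it (TR4 in clone TB). With MYC antibody in the doubly tagged clone they lay 299, 280 and 299 before it. All 6 libraries with antibody to TR4 thus stood within 75 bases of the start, and all 6 with antibody to HA at least 124 bases before it, while 2 of the 3 MYC libraries of clone T stood with the HA libraries. No test separated the antibody from the protein here.

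The mean at the second start of GATAD2A was −242 ± 69.2 bases with BCL11A and −104 ± 111 with TR4 (SD, n = 9 each), a difference of −138 bases along the gene (adjusted p = 0.0322, exact permutation test). Without the MYC libraries it was −200.2 bases (adjusted p = 0.0271, exact permutation test). The call was lost, with adjusted p between 0.0516 and 0.0673 in the exact permutation test, on leaving out 1 library in 13 of 18 cases: replicate 1 or 2 of MYC in clone B, of HA in clone B or of HA in clone TB, replicate 3 of MYC in clone T, or any TR4 library of clone T or clone TB. It was also lost without all replicates numbered 3 (difference −152 bases, adjusted p = 0.214, exact permutation test; range over 23 alternatives 0.0156 to 0.214). At the other 4 regions the differences were small or uncalled: 21.6 bases at GATAD2B (adjusted p = 0.131), 3.78 at MBD2 (0.664), −17.2 at MTA2 (0.567) and 7.11 at the first start of GATAD2A (0.952), all by the exact permutation test.

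**Figure D3:**
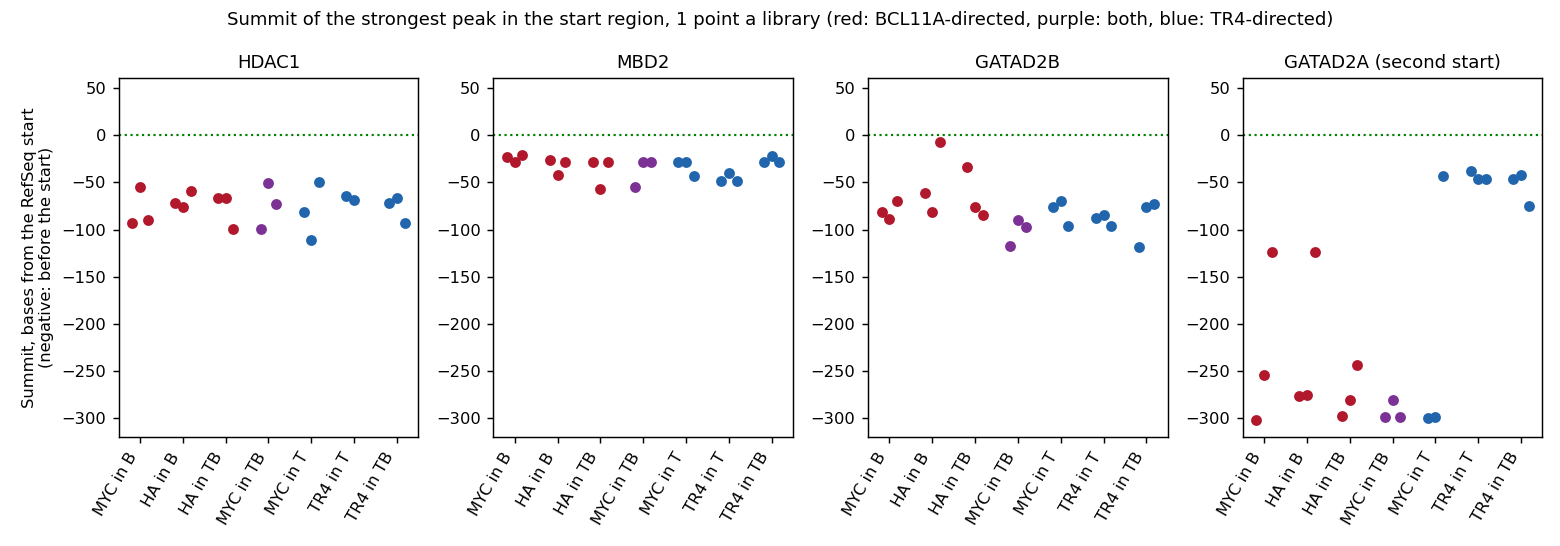
Summit position in bases from the RefSeq start (dotted line, negative before it) at 4 member starts, 1 point a library, grouped by antibody and clone. At HDAC1, MBD2 and GATAD2B the points of both targets share a range. At the second start of GATAD2A the 6 TR4-antibody libraries lie within 75 bases of the start, and all BCL11A-directed libraries at least 124 bases before it. The targets do not separate fully there, as replicates 1 and 2 of MYC in clone T lie 300 and 299 bases before the start.

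The strength of the peaks is described only within each list, by the percentile of the fold of the strongest peak in the window. Lists of different length give percentiles that cannot be compared between targets. Within BCL11A-directed lists MTA1 stood between percentiles 80.8 and 96.0, and MBD3 between 39.7 and 95.9. Within TR4-directed lists MTA1 reached from 11.9 to 91.5, and MBD3 from 7.48 to 73.3. The 4 highest TR4-directed percentiles at MTA1 were those of the peaks before its start in clone T.

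**Figure D4:**
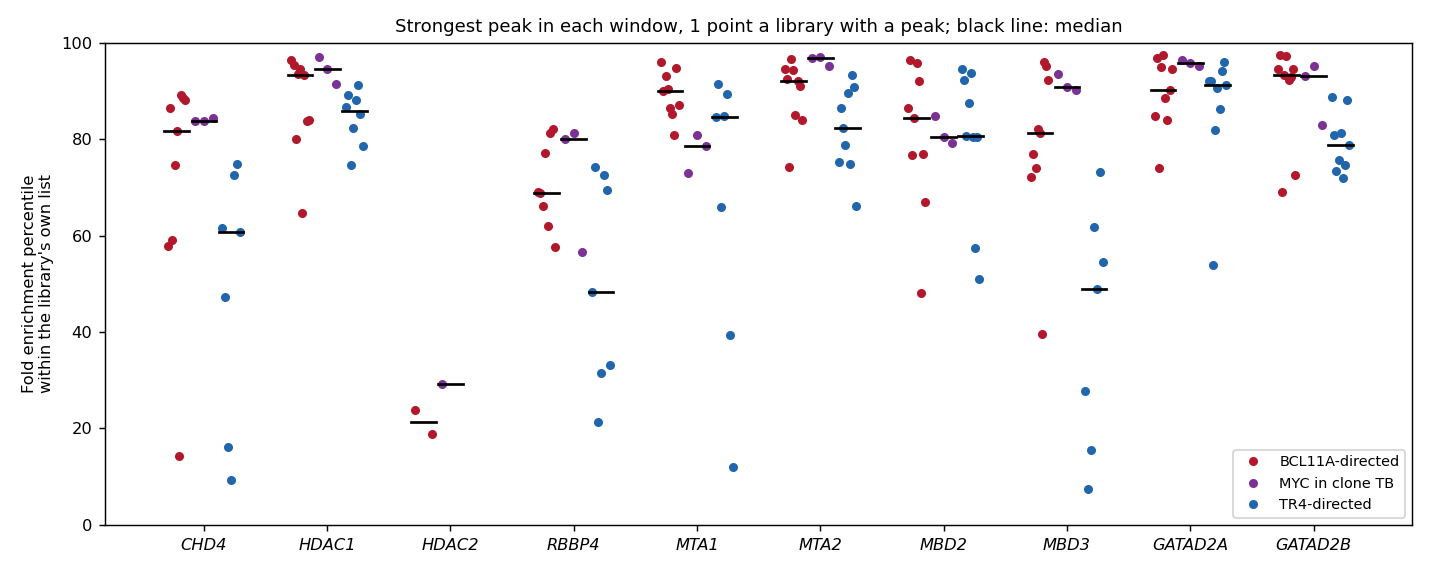
Percentile, within its own list, of the fold enrichment of the strongest peak in each gene's window, 1 point for each library with a peak and a black line at the median. HDAC2 stays below percentile 30 in the 3 libraries that had a peak, and lists of different length are not comparable between colours.

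Pairs of antibodies and clones were set side by side with 3 libraries each, for which the smallest two-sided p of an exact permutation test is 0.1. Within clone TB, HA libraries averaged more peaks than TR4 libraries at 7 members, fewer at 2 and as many at 1. With the same antibody, MYC libraries of clone B averaged more than MYC libraries of clone T at 8 members, fewer at 1 and as many at 1. In both pairs the first lists were the longer. HA lists of clone TB held 24078, 27021 and 15163 peaks, against 11488, 11510 and 6944 in its TR4 lists. MYC lists held 29363, 31432 and 13429 in clone B, against 13205, 14263 and 4621 in clone T. The same counts over all genes were not computed, so these do not single out NuRD genes. At MTA1 the means were 4.33 with HA and 0.333 with TR4 in clone TB, and 6.33 in clone B and 2.00 in clone T with MYC (exact permutation p = 0.1 for each). HA libraries of clone TB averaged more than HA libraries of clone B at 2 members and fewer at 7, with no exact permutation p below 0.7. TR4 libraries of clone TB averaged more than TR4 libraries of clone T at 3 members, fewer at 4 and as many at 3. The lowest exact permutation p of that pair was 0.1, at MBD2 (1.00 in clone TB and 2.00 in clone T), and at MTA1 the means were 0.333 in clone TB and 2.00 in clone T.

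Other genes of the same and related complexes gave counts near the background in most lists. Over all genes tested 35.7% were called higher and 2.52% lower. All lists were tested in the same fit for peak number. For genes outside the 10 members, whether a peak lies at the gene or at a neighbouring gene was not examined. Of 6 further NuRD subunit genes 4 were tested and 1 was higher with BCL11A, CDK2AP2 (3.22 ± 0.83 peaks with BCL11A and 1.33 ± 0.87 with TR4, SD, n = 9 each; adjusted p = 0.00554, exact permutation test). CDK2AP1 and MTA3 had too few peaks to test. Of 7 other class I HDAC and MBD family genes 2 were higher, HDAC3, the deacetylase of the NCoR and SMRT complexes (difference 2.11), and HDAC8 (difference 0.778). Of 13 genes of the SIN3 complex, which shares HDAC1, HDAC2 and RBBP4 with NuRD, 2 were higher, ING1 (1.78) and ING2 (1.22), and 1 was lower, SAP18 (−1.33). With equal list lengths ING1 and SAP18 were called in the same direction (1.33 with adjusted p = 0.00684 and −1.22 with adjusted p = 0.000311, exact permutation test). CDK2AP2 and HDAC3 were not called (0.556 with adjusted p = 0.237 and 0.667 with adjusted p = 0.0871, exact permutation test). ING2 was at 0, and HDAC8 had no peak left. Called lower only in that setting were CHD5, MBD1, MBD5, SAP30 and ARID4A (adjusted p between 0.000311 and 0.0106, exact permutation test). That setting gave 1 lower of 3 tested further NuRD subunit genes, 2 of 5 HDAC and MBD family genes and 3 of 10 SIN3 genes. Over all genes 24.8% were lower and 18.9% higher.

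Among 13 genes of proteins known to work with or recruit NuRD, 8 of the 11 tested had more peaks with BCL11A and 4 of the 11 were called in presence, against 35.7% and 9.93% of all genes tested. At equal list lengths 5 of the 13 could be tested and 3 were higher in number (exact permutation test), against 18.9% higher and 24.8% lower of all genes. ZFPM1, the GATA1 cofactor, averaged 25.4 ± 4.69 peaks with BCL11A and 4.56 ± 3.00 with TR4 (SD, n = 9 each), ZMYND8 6.00 and 1.67, and IKZF1, the lymphoid regulator Ikaros, 4.56 and 0.222. ZFPM2 had a peak in 9 of 9 BCL11A-directed against 0 of 9 TR4-directed libraries. At equal list lengths ZFPM1 averaged 9.67 ± 2.35 and 1.78 ± 0.83 peaks (SD, n = 9 each), while IKZF1 had none left and ZFPM2 too few to test. For each of these 4 the adjusted p of peak number with the lists as deposited was 0.000840 (exact permutation test). GATA1, the erythroid master regulator, and BCL11A itself tied with them at that p and were added after their values were seen. GATA1 had a peak in 9 of 9 BCL11A-directed against 1 of 9 TR4-directed libraries (adjusted p = 0.00784, Fisher's exact test). BCL11A averaged 4.33 ± 1.73 peaks with BCL11A and 0.667 ± 0.500 with TR4 (SD, n = 9 each). At equal list lengths the BCL11A gene averaged 0.444 and 0 peaks, too few to test. GATA1 averaged 1.33 with BCL11A and 0 with TR4 in that setting (adjusted p = 0.000311, exact permutation test). The windows of this list are long, with a median of 111647 bases. This list was drawn up with earlier results of these libraries known, so its direction is not independent evidence.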

How the data were processed

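Peak lists of 24 CUT&RUN libraries were used, 1 per library. The submitters' processing notes name the build GRCh38 and the tools MACS2 2.1.4, Bowtie2, SAMtools, Picard and Trimmomatic, whose settings are not given in the sources used here. Per the labels and file format, each deposited peak carries the authors' fold enrichment (a linear ratio), a −log10 p-value and a −log10 q-value, and an offset from peak start to summit. Read depth is unknown, so no interval that needs it is given, and no test compares folds between lists. Peaks on primary chromosomes were kept. Gene records, starts and promoters came from RefSeq tables of the same build (GRCh38.p14), which hold no exons, so exon, intron and UTR are not stated; all 10 members matched by symbol.

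Overlapping peaks of all lists (1 base or more) were joined into 77551 regions. The 6992 with an IgG peak were left out, and the 23795 with a peak in at least 4 of 18 libraries were tested. Presence used Fisher's exact test, and peak number and mean summit position an exact permutation test, each fitted over all genes or regions with Benjamini-Hochberg adjustment at 0.05 (Python 3.11.15, SciPy 1.17.1, NumPy 2.4.6, pandas 2.3.3). The tests were checked on simulated data, drawn independently for each library and with no general difference in list length between targets. That check does not cover the difference in list length, or likeness within an antibody and clone. Same-numbered replicates were not taken as pairs. Alternatives covered a stricter q, equal list lengths, no MYC libraries, a replicate block, windows of 1 kb, other overlap and filter rules, each library left out in turn and, chosen after seeing the data, all replicates numbered 3 left out. All members, every called member region and the start or fullest region of each member are named, with at most 4 called genes of each other list, lowest p first. The members and lists were chosen with earlier results of these data known.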

Additional observations from a re-analysis of the deposited data

Results flagged for a closer look

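Within the 9 libraries of a target, 5 counts stood far from the others, a rule that chance meets in about 1 of 20 groups. That rate was not computed for counts as small and tied as these, where a step of 1 peak can meet the rule. Whether 5 exceeds chance was not tested. In BCL11A-directed libraries these were replicate 3 of HA in clone B, with 2 peaks at MBD2 where the other 8 had 1, and replicate 3 of MYC in clone B, with 1 peak at GATAD2B where the others had 2 or 3. In TR4-directed libraries they were replicate 2 of TR4 in clone T, with 4 peaks at CHD4, replicate 3 of TR4 in clone T, with 0 at HDAC1, and replicate 1 of MYC in clone T, with 3 at MBD2. The CHD4 count lay 2 peaks from the nearest of the others, and each of the other 4 counts lay 1 peak from it.

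A region outside the comparison of targets, chr19:19406448-19406624 after the second start of GATAD2A, had a peak in 2 of the 3 MYC libraries of clone TB. A peak lay there in 1 of 9 BCL11A-directed libraries, in 0 of 9 TR4-directed libraries and in no IgG library.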

How the results depend on the processing

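Counts of members or member regions called higher and lower with BCL11A were 0 and 0 for presence, 4 and 0 for number and 6 and 1 for regions, with 1 summit called. With a −log10 q of at least 5, 3 regions were higher, and MTA1 chr14:105473668 turned to −0.111 in the share of libraries. With equal list lengths 1 member was higher in presence (MBD3), 1 higher and 1 lower in number, and 2 and 0 regions were called. HDAC1 and RBBP4 turned to −0.111 and −0.222 in presence and, in number, HDAC1, GATAD2A, GATAD2B and RBBP4 to −0.111, −0.667, −0.111 and −0.222; the HDAC1 start region turned to −0.111. Fewer peaks are kept under that limit. Without the MYC libraries, with fewer samples, 1 member was higher in number and 1 region higher and 0 lower; no gene at all was called in presence. Requiring a peak over at least 0.5 of the region gave 0 lower regions, and testing every region 3 higher and 0 lower. Without all replicates numbered 3 3 regions were higher, 0 summits were called, and the MBD2 summit difference turned to −1.33 bases. Leaving out 1 library gave 0 called in presence, 3 to 5 higher in number, 6 to 7 regions higher and 1 to 2 lower, and 0 to 1 summit called; the uncalled GATAD2A first-start summit difference ran from −7.67 to 29.0 bases and was negative in 10 of those repeats.

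The replicate block, with tests within the replicate numbers, called 5 members in number (GATAD2A added, adjusted p = 0.0356, exact permutation test), 6 and 1 regions and 1 summit. Deviations of same-numbered BCL11A- and TR4-directed libraries correlated at 0.0714, 0.286 and 0.362 for numbers 1, 2 and 3, so number 1 gave no sign of pairing, and replicate 1 of BCL11A correlated better with number 2 (0.207). Unknown read depth limits every statement that a list lacks a peak.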

Other observations

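CHD5, a relative of CHD4 known mainly from neurons and testis, had exactly 1 peak in its window in each of the 9 BCL11A-directed and 9 TR4-directed libraries (1.00 peaks with BCL11A and 1.00 with TR4, SD 0), and none of the IgG lists had one. With equal list lengths it averaged 0 peaks in BCL11A-directed and 1.00 in TR4-directed libraries (SD 0 for each). There it was called lower with BCL11A (adjusted p = 0.000311, exact permutation test). CHD5 was singled out after its values were seen. Whether the peak lies at CHD5 or at a neighbouring gene was not examined.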
